A study of Mus musculus with 12 samples.

Results

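The collagen gene family was read here as every gene whose symbol has the form of a collagen chain (Col, a type number, the letter a and a chain number), and 36 of the 16399 symbols in the authors' tables met that rule. They comprised 11 fibrillar chains, 6 basement membrane chains, 5 type VI chains and 14 others, among them the anchoring fibril, network and fibril-associated types. Of the 36 members, 29 were listed in all 5 tables, and 14 reached a mean normalized count of 100 in all 5. A further 20 members were not listed or had a mean count under 10 in at least 1 table, so most of what follows rests on fewer than 36 genes.

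RNA was sequenced from MC38 tumours, a mouse colon carcinoma model, labelled C57BL/6 albino, which had been dissociated and from which the 40 to 100 µm pieces were kept. The pieces were held for 6 days in a collagen gel of 2.8 mg/mL inside chips for culture in 3 dimensions, at 300 µL of medium a well, and libraries were made by exome capture from 250 ng of total RNA. The 12 samples formed 4 groups of 3: control antibody 2A3 at 10 µg/mL (IgG), the PD-1 antibody RMP1-14 at 10 µg/mL (aPD-1), RMP1-14 with the CD8 antibody 53-6.7 at 10 µg/mL each (aPD-1+CD8), and interferon-gamma at 100 ng/mL (IFNg). Whether the 3 samples of each group are separate animals or cultures is not in the labels. The p-values thus set group differences only against the variation among these samples, and that variation may be technical.

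Collagens are triple helices of 3 chains each, made in the endoplasmic reticulum, trimmed outside the cell and joined by cross-links. Fibrillar collagens such as types I, III and V form the tensile fibres of stroma, type IV builds the sheet of the basement membrane, and type VI forms beaded filaments around cells. In tumours, fibroblasts are the best known source of fibrillar collagen, although tumour cells of mesenchymal character also transcribe it. Chains of 1 type are encoded by separate genes and assemble in set proportions, so partner chains are described together below. The RNA says nothing about the collagen gel itself, which is protein.

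The deposited files hold the authors' own comparisons, with 0 columns of single samples. Each gives a log2 fold change and its standard error (SE), both apparently shrunken toward 0, and a p-value adjusted over the whole table. A gene was called changed at an adjusted p under 0.05 (DESeq2, Benjamini-Hochberg). Group levels were worked out from the mean normalized counts of the pairs of groups, after the tables were put on 1 scale. They are mean normalized counts without a replicate spread, and they carry no test.

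PD-1 antibody against control antibody was the first comparison, and in it 13 collagens rose, led by Col3a1, Col7a1 and Col5a1. The authors' deposited table held an adjusted p for 25 of the 36 members, of which these 13 rose, 1 fell and 11 were not called, against 18.5% of all 12024 genes tested that were called in either direction (8.5% higher and 10.0% lower). The median log2 fold change of these 25 was 0.66, beside 0.01 over all genes tested. The count depended on the null distribution used: with the spread of all scores in the table taken as the null, 4 members remained called (Col3a1, Col7a1, Col5a1 and Col12a1). Members with very low counts received no adjusted p, and neither did Col9a2, whose p-value is empty at a mean count of 12.9. A gene silent in IgG could pass the filter on low counts through aPD-1 alone.

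By class, of the fibrillar chains 6 of 11 rose (median log2 fold change 1.0), of the type VI chains 3 of 3 tested rose (0.59), and of the basement membrane chains 1 of 4 tested rose (-0.06). Among the other chains 3 of 7 tested rose and 1 fell (0.23), all in the authors' deposited table for aPD-1 v IgG. Type IV alone had 0 of 3 tested chains called, with 1 at an unadjusted p under 0.05 (DESeq2). Over all genes tested there, 18.5% were called (8.5% higher and 10.0% lower). With 3 or 4 chains tested, 0 or 1 call cannot be told apart from that share. No test of one class against another was made.

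**Figure D1:**
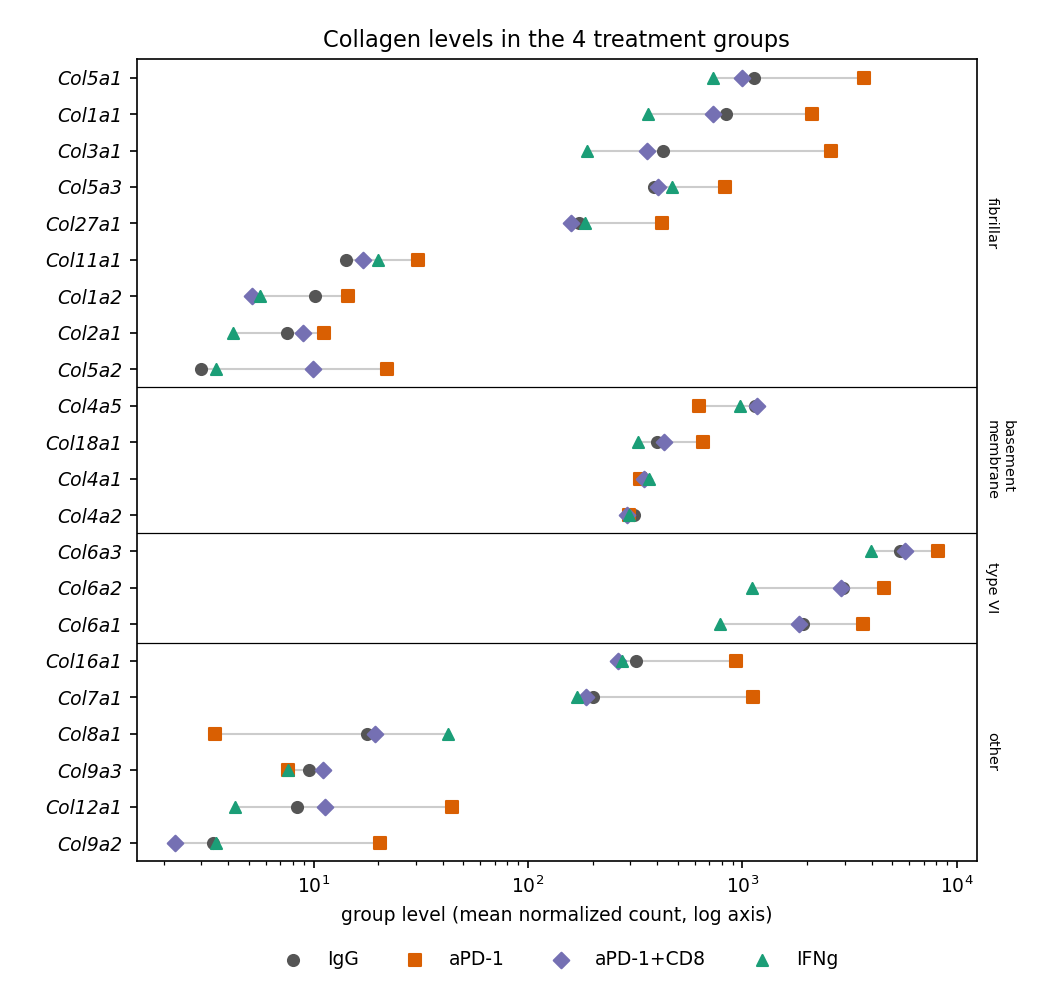
Group level of each collagen whose mean count reached 10 in some table, as a mean normalized count on a log axis (x), for the 4 treatment groups; the grey line spans a gene's 4 levels. The aPD-1 marker lies to the right in most fibrillar, type VI and other rows, near the rest for Col4a1 and Col4a2, and to the left for Col4a5 and Col8a1.

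The promoter windows of the chains with the 3 smallest adjusted p-values in this comparison, Col3a1, Col7a1 and Col5a1, are printed with that of Col8a1, the chain that fell, because these move in a common and in the opposite direction. Each is the 250 bases before the RefSeq start, on GRCm38.p6, written 5′ to 3′ on the gene's strand, and each overlaps no annotated exon. Capitals mark matches on either strand to 5 motifs: TATAAA, which is the TATA box, the CCAAT box, the GC box with the letters GGGCGG, the AP-1 motif with the letters TGANTCA and the STAT motif with the letters TTCNNNGAA. The windows lie at chr1:45311288-45311537 (plus strand, Col3a1), chr9:108953336-108953585 (plus strand, Col7a1), chr2:27886175-27886424 (plus strand, Col5a1) and chr16:57754738-57754987 (minus strand, Col8a1).
Col3a1: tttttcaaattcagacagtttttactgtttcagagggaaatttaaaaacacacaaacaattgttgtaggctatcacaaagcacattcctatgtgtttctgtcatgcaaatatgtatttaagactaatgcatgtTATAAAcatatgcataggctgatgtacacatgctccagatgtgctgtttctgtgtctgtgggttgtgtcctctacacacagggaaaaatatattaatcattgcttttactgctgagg
Col7a1: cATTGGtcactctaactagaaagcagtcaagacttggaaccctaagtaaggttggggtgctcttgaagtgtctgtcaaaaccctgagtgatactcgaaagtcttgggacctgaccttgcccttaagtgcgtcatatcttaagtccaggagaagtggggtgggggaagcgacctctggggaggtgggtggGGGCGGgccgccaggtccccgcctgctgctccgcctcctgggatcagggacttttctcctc
Col5a1: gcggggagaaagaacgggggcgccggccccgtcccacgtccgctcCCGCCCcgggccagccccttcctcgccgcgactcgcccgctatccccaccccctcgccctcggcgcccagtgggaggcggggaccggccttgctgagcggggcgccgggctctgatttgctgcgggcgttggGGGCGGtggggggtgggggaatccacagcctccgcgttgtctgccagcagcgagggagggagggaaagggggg
Col8a1: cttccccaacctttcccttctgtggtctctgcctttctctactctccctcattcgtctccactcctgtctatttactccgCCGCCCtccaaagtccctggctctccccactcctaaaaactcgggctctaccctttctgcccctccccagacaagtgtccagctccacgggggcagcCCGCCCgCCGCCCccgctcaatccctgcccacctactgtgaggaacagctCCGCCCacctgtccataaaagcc
The 3 windows of the chains that rose share little. The Col3a1 window holds 0 CpG dinucleotides and a TATAAA match 117 bases before the start, the Col5a1 window holds 28 CpG and 2 GGGCGG matches, and the Col7a1 window holds 7 CpG, a CCAAT match 249 bases and a GGGCGG match 61 bases before the start. The Col8a1 window holds 10 CpG and 4 GGGCGG matches. The median over all 32851 mouse windows of that length was 6 CpG.

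RefSeq promoters were matched for 28 of the 36 members, with 31 windows in all, and the entries for Col1a1, Col5a2 and Col12a1 were not among them. TATAAA occurred in 3 of the 31 windows and in 12.4% of all windows, CCAAT in 12 of 31 and 33.8%, and GGGCGG in 20 of 31 and 32.7%. TGANTCA, the letters read by AP-1 factors, occurred in 1 member window (Col6a1) and in 6.75% of all windows. TTCNNNGAA, the letters read by STAT factors, also occurred in 1 (Col6a5) and in 7.02% of all windows. A match is a run of letters and not a shown binding site.

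Among the fibrillar chains, Col3a1, which encodes the single chain of type III collagen, stood at a level of 428 in IgG, 2578 in aPD-1, 358 in aPD-1+CD8 and 188 in IFNg. The aPD-1 group was thus 6.02 times the IgG level and the IFNg group was the lowest. Its log2 fold change in the authors' deposited table for aPD-1 v IgG was 2.42 ± 0.19 (SE; adjusted p 4e-34, DESeq2). Col5a1, a type V chain that starts fibrils and sets their width, stood at 1135 in IgG, 3699 in aPD-1, 999 in aPD-1+CD8 and 728 in IFNg. It rose by 1.62 ± 0.17 (adjusted p 2.6e-19, DESeq2) in the authors' deposited table for aPD-1 v IgG.

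Col1a1, the main chain of type I collagen, stood at 838 in IgG, 2116 in aPD-1, 729 in aPD-1+CD8 and 363 in IFNg. It rose by 1.11 ± 0.31 (adjusted p 0.0029, DESeq2) in the authors' deposited table for aPD-1 v IgG, a less precise value than that of Col3a1 or Col5a1. Its partner chain Col1a2 stood at 10.2, 14.5, 5.16 and 5.62 in the same order of groups, a small fraction of Col1a1. The log2 fold change of Col1a2 was 0.24 ± 0.42 with a 95% interval of -0.57 to 1.06 (adjusted p 0.78, DESeq2) in the authors' deposited table, an interval that ends just below the Col1a1 estimate.

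The further type V chains rose too. Col5a3 stood at 387, 826, 405 and 467 in IgG, aPD-1, aPD-1+CD8 and IFNg, and rose by 1.0 ± 0.22 (adjusted p 6.2e-05, DESeq2) in the authors' deposited table for aPD-1 v IgG. Col5a2 was scarce, at 2.97 in IgG, 22.0 in aPD-1, 9.92 in aPD-1+CD8 and 3.51 in IFNg, and rose by 1.73 ± 0.4 (adjusted p 0.00022, DESeq2) in that same deposited table of the authors. In RefSeq, Col5a2 is the neighbour of Col3a1 on chromosome 1, and both neighbours rose.

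Col27a1, a fibrillar chain best known from cartilage, stood at 173, 423, 159 and 185, with aPD-1 again apart from 3 similar groups. It rose by 1.16 ± 0.23 (adjusted p 1.6e-05, DESeq2) in the authors' deposited table for aPD-1 v IgG. Col11a1, a chain of the thin fibrils of cartilage and of some tumour stroma, stood at 14.2, 30.8, 17.0 and 19.9 and was not called, with 0.82 ± 0.35 (adjusted p 0.083, DESeq2) in the authors' deposited table. Col2a1, the main cartilage collagen, was not called either, at levels of 7.51, 11.2, 8.92 and 4.2, with 0.36 ± 0.4 (adjusted p 0.62, DESeq2) in the authors' deposited table. The remaining fibrillar chains, Col11a2 and Col24a1, stayed under 10 in every group and were not called.

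Among the basement membrane chains, Col4a1 and Col4a2, which together form the common type IV network, are divergent neighbours on mouse chromosome 8 whose RefSeq starts lie 21 bases apart. Col4a1 stood at 337 in IgG, 333 in aPD-1, 349 in aPD-1+CD8 and 365 in IFNg, and Col4a2 stood at 311, 295, 288 and 297. These 8 values span a narrow band, and neither gene was called in any of the 5 comparisons. The 95% interval for aPD-1 v IgG was -0.42 to 0.36 for Col4a1 (adjusted p 0.96, DESeq2) and -0.51 to 0.34 for Col4a2 (adjusted p 0.86, DESeq2) in the authors' deposited table. Both lie below the interval of Col3a1, which began at 2.05, but they overlap that of Col18a1, which began at 0.32. The intervals rest on the deposited SE, and the Col18a1 call was lost with the spread of all scores as the null (adjusted p 0.28).

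Col4a5, the X-linked chain of the type IV network found in kidney and some other basement membranes, was lowest in aPD-1. It stood at 1144 in IgG, 630 in aPD-1, 1174 in aPD-1+CD8 and 974 in IFNg, so that aPD-1 was 0.551 times IgG. The log2 fold change in the authors' deposited table was -0.71 ± 0.33 (adjusted p 0.12, DESeq2) and did not pass the threshold. Col4a6, whose start lies 1343 bases from that of Col4a5, had a mean count of 0.152 in the authors' deposited table for aPD-1 v IgG, against 964 for Col4a5.

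Col18a1, a proteoglycan chain of basement membranes whose tail is released as endostatin, was the basement membrane member that rose. It stood at 399, 658, 429 and 324 in IgG, aPD-1, aPD-1+CD8 and IFNg, and rose by 0.67 ± 0.18 (adjusted p 0.0018, DESeq2) in the authors' deposited table for aPD-1 v IgG.

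The type VI chains had the highest levels per coding length in the family. Per kilobase of coding sequence, Col6a2 stood at 953 in IgG, Col6a1 at 625 and Col6a3 at 548, against 226 for Col4a5, 206 for Col5a1, 192 for Col1a1, 97.5 for Col3a1 and 67.4 for Col4a1. In counts, Col6a1 stood at 1923 in IgG, 3640 in aPD-1, 1828 in aPD-1+CD8 and 784 in IFNg. Col6a2, its neighbour on chromosome 10, stood at 2957, 4581, 2894 and 1105. Col6a3, the long chain that joins them, stood at 5401, 8191, 5733 and 3965. All 3 had aPD-1 as their highest and IFNg as their lowest group.

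The type VI rise was smaller than that of Col3a1. In the authors' deposited table for aPD-1 v IgG it was 0.86 ± 0.2 for Col6a1 (adjusted p 0.0002, DESeq2), 0.59 ± 0.19 for Col6a2 (adjusted p 0.011, DESeq2) and 0.57 ± 0.15 for Col6a3 (adjusted p 0.002, DESeq2). Their 95% intervals all ended below the 2.05 at which that of Col3a1 began. None of these calls was kept with the spread of all scores as the null (adjusted p 0.15 for Col6a1, 0.46 for Col6a2 and 0.29 for Col6a3). The alternative chains Col6a4 and Col6a5 had mean counts under 1 wherever they were listed.

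Among the other collagens, Col7a1, the anchoring fibril chain that ties skin basement membrane to the stroma below, stood at 200 in IgG, 1115 in aPD-1, 187 in aPD-1+CD8 and 169 in IFNg. Only aPD-1 stood apart, at 5.59 times IgG, and the log2 fold change was 2.3 ± 0.2 (adjusted p 2.1e-27, DESeq2) in the authors' deposited table. Col16a1, a fibril-associated chain, stood at 318, 931, 264 and 273 and rose by 1.24 ± 0.33 (adjusted p 0.0017, DESeq2) in the authors' deposited table for aPD-1 v IgG. Col12a1, a fibril-associated chain of dense connective tissue, stood at 8.41, 44.2, 11.3 and 4.28 and rose by 1.87 ± 0.35 (adjusted p 1.5e-06, DESeq2) in the authors' deposited table.

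Col8a1, a short-chain network collagen known from vessel walls and the cornea, was the member that fell. It stood at 17.7 in IgG, 3.48 in aPD-1, 19.4 in aPD-1+CD8 and 42.3 in IFNg, with aPD-1 lowest and IFNg highest. Its log2 fold change in the authors' deposited table for aPD-1 v IgG was -1.41 ± 0.41 (adjusted p 0.0048, DESeq2). Col9a3, a chain of cartilage type IX collagen, was not called, with -0.2 ± 0.41 (adjusted p 0.82, DESeq2) in the authors' deposited table. Its partner Col9a2 stood at 3.38, 20.4, 2.25 and 3.52, and the authors' deposited tables leave its p-value empty in all 3 comparisons that include aPD-1, which is how DESeq2 marks an outlying count in a sample.

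**Figure D2:**
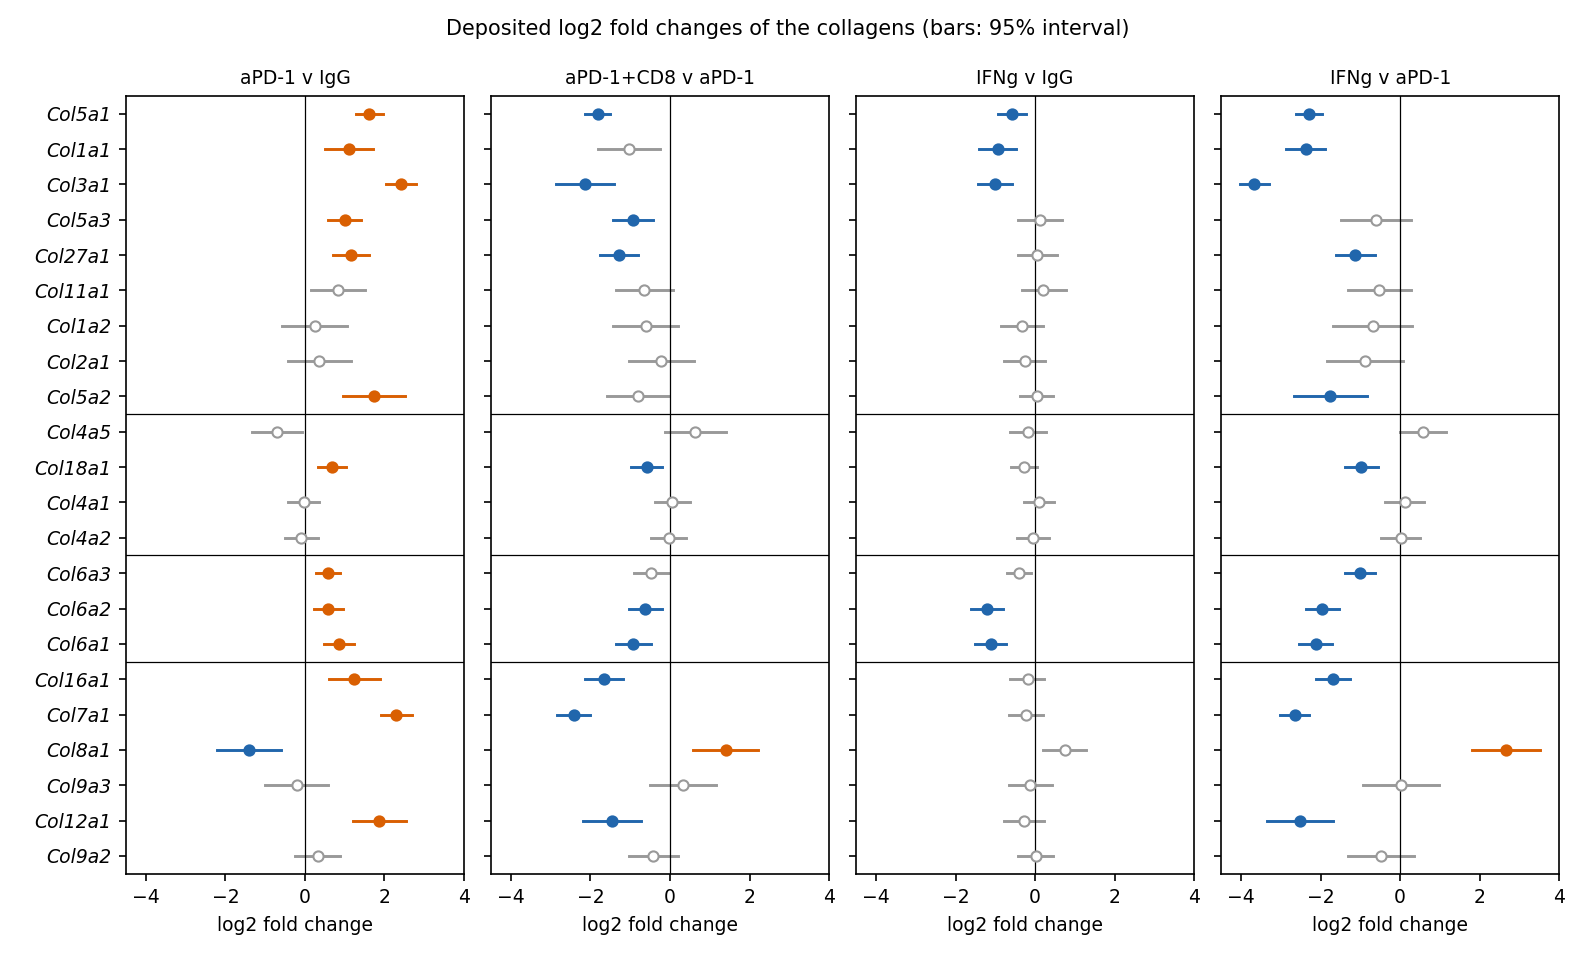
Log2 fold change (x) of each collagen in 4 of the authors' deposited tables, with bars for the 95% interval (1.96 SE). Filled orange points were called higher and filled blue points lower. Open grey points were not called, or had no p-value, as Col9a2 in the panels that include aPD-1. The filled points lie right of 0 in aPD-1 v IgG and left of 0 in the other 3 panels, except Col8a1 wherever it was called.

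Adding the CD8 antibody to the PD-1 antibody was compared with PD-1 antibody alone. In the authors' deposited table, 22 of the 36 members had an adjusted p, and 10 of them were lower with the CD8 antibody, 1 was higher and 11 were not called, beside 14.8% of all genes tested that were called in either direction (7.82% higher and 6.94% lower). With the spread of all scores as the null, 5 stayed called, and 7 had a log2 change of at least 1 in size. By class, 4 of 10 fibrillar chains tested, 2 of 3 type VI chains, 1 of 4 basement membrane chains and 3 of 5 others were lower, and 1 of the others was higher. This comparison shares its aPD-1 libraries with aPD-1 v IgG, so opposite values in the pair are not independent of each other.

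Col7a1 was lower by -2.42 ± 0.21 (adjusted p 4.4e-27, DESeq2) with the CD8 antibody in the authors' deposited table. Col3a1 was lower by -2.14 ± 0.37 (adjusted p 2.9e-07, DESeq2), Col5a1 by -1.82 ± 0.16 (adjusted p 1.2e-26), Col16a1 by -1.66 ± 0.25 (adjusted p 1e-09) and Col12a1 by -1.47 ± 0.38 (adjusted p 0.0015) in the same deposited table of the authors. Col27a1 was lower by -1.29 ± 0.25 (adjusted p 5.6e-06), Col5a3 by -0.93 ± 0.26 (adjusted p 0.0035), Col6a1 by -0.93 ± 0.22 (adjusted p 0.00048), Col6a2 by -0.62 ± 0.22 (adjusted p 0.032) and Col18a1 by -0.58 ± 0.2 (adjusted p 0.025), all DESeq2 values of the authors' deposited table. Of the chains that had risen with aPD-1, 3 did not pass here, namely Col1a1 with -1.04 ± 0.4 (adjusted p 0.057, DESeq2), Col5a2 with -0.81 ± 0.39 (adjusted p 0.16, DESeq2) and Col6a3 with -0.48 ± 0.21 (adjusted p 0.12, DESeq2) in the authors' deposited table. Col8a1 was the chain that was higher, by 1.4 ± 0.42 (adjusted p 0.0092, DESeq2) in the authors' deposited table.

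Set against IgG directly, the aPD-1+CD8 group had 0 of 34 listed members called in the authors' deposited table, where 0.0% of 15304 genes passed (DESeq2). No collagen and 57 of all genes were at an unadjusted p under 0.05 there. The fold changes of that table are strongly shrunken, with the largest at 0.353 over all genes, so its sizes are not comparable with the other tables. By group level, the 14 abundant members named above, whose mean counts reached 100 in all 5 tables, stood at 0.829 to 1.08 times IgG (median 0.945), whereas in aPD-1 they stood at 0.551 to 6.02 times IgG (median 2.01). Without putting the tables on 1 scale, the median log2 ratio of aPD-1+CD8 over IgG would have been -0.6 in place of -0.08, so closeness to IgG rests on that correction. The p-values do not show that the aPD-1+CD8 and IgG groups were equal.

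**Figure D3:**
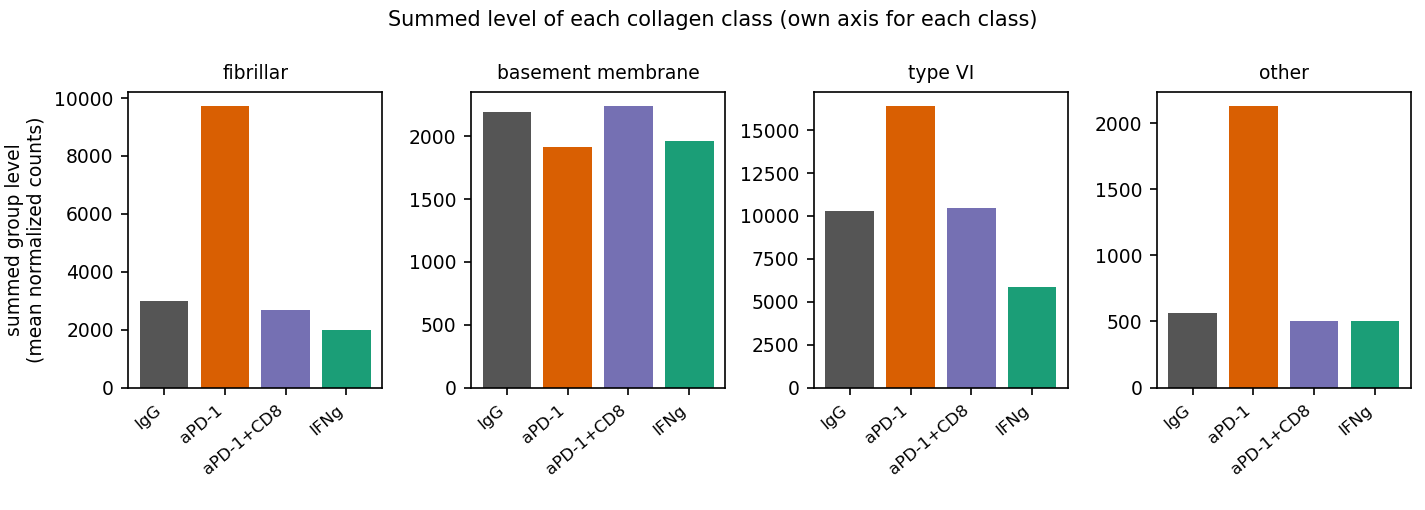
Summed group level (mean normalized counts, y, each panel with its own axis from 0) of the fibrillar, basement membrane, type VI and other collagens in the 4 treatment groups, without error bars because no single-sample values were at hand. The aPD-1 bar is the highest in 3 panels and, just below IFNg, the lowest in the basement membrane panel. The IFNg bar is the lowest for fibrillar and type VI chains.

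Summed over the 29 members in all 5 tables, the collagens took 16039 normalized counts in IgG, 30187 in aPD-1, 15891 in aPD-1+CD8 and 10295 in IFNg. That was 0.152%, 0.28%, 0.146% and 0.0927% of the summed levels of all genes in those groups. The fibrillar sum was 3003, 9728, 2695 and 1978, so aPD-1 had 3.24 times the IgG sum. The type VI sum was 10281, 16412, 10455 and 5854, the basement membrane sum 2192, 1916, 2241 and 1961, and the sum of the others 563, 2130, 500 and 502. The basement membrane sum in aPD-1 was 0.874 times IgG, the one class in which it was not higher. Col4a5, which was not called, made up 52.2% of that sum in IgG and was the member with the large drop, while Col18a1 was higher in aPD-1. In bulk RNA, fewer cells of a type and less RNA per cell cannot be told apart, and this holds for each value given here.

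Interferon-gamma against control antibody gave fewer calls, all of them downward. In the authors' deposited table, 24 of the 36 members had an adjusted p, and 5 were lower, none was higher and 19 were not called, beside 4.1% of all genes tested that were called in either direction (2.73% higher and 1.38% lower). The 5 were Col6a2 with -1.2 ± 0.2 (adjusted p 3.5e-07), Col6a1 with -1.12 ± 0.19 (adjusted p 5.8e-07), Col3a1 with -1.01 ± 0.22 (adjusted p 0.00019), Col1a1 with -0.94 ± 0.23 (adjusted p 0.0026) and Col5a1 with -0.58 ± 0.18 (adjusted p 0.034), all DESeq2 values of the authors' deposited table. Of these 5, 3 had a log2 change of at least 1 in size, and Col5a1 was lost with the spread of all scores as the null (adjusted p 0.095). Thus 2 of 3 tested type VI chains and 3 of 11 fibrillar chains fell, while 0 of 4 basement membrane and 0 of 6 other chains were called.

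Several chains that had risen with aPD-1 were not called with IFNg. Col7a1 gave -0.22 ± 0.22 (adjusted p 0.84, DESeq2), Col5a3 0.13 ± 0.28 (adjusted p 0.96, DESeq2), Col27a1 0.06 ± 0.25 (adjusted p 0.99, DESeq2) and Col6a3 -0.41 ± 0.15 (adjusted p 0.13, DESeq2) in the authors' deposited table for IFNg v IgG. Col8a1 gave 0.75 ± 0.27 (adjusted p 0.12, DESeq2) in the authors' deposited table, with a level 2.4 times IgG. Col24a1, a fibrillar chain of developing bone and cornea, stood at 0.51 in IgG and 9.23 in IFNg and gave 0.66 ± 0.23 (adjusted p 0.091, DESeq2) in the authors' deposited table.

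The cytokine and the PD-1 antibody were also compared directly, which tests their difference. In the authors' deposited table for IFNg v aPD-1, 25 of the 36 members had an adjusted p, and 12 were lower in IFNg, 1 was higher and 12 were not called, beside 15.5% of all genes tested that were called in either direction (8.39% higher and 7.13% lower). Col3a1 was lower by -3.67 ± 0.19 (adjusted p 2.6e-82), Col7a1 by -2.65 ± 0.18 (adjusted p 1.3e-44), Col12a1 by -2.51 ± 0.42 (adjusted p 1.1e-07), Col1a1 by -2.38 ± 0.25 (adjusted p 4.1e-19) and Col5a1 by -2.29 ± 0.16 (adjusted p 5.5e-42), all DESeq2 values of the authors' deposited table. The 3 type VI chains were lower by -2.12 ± 0.21 (Col6a1, adjusted p 1.1e-21), -1.97 ± 0.21 (Col6a2, adjusted p 1.4e-18) and -1.01 ± 0.19 (Col6a3, adjusted p 2.4e-06) by DESeq2 in the authors' deposited table. Col3a1 thus stood in IFNg at 0.073 times its aPD-1 level, the lowest such ratio among the 14 abundant members.

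The rest of the calls in IFNg v aPD-1 were Col5a2 with -1.76 ± 0.47 (adjusted p 0.0023), Col16a1 with -1.69 ± 0.22 (adjusted p 1.1e-12), Col27a1 with -1.13 ± 0.25 (adjusted p 0.00016) and Col18a1 with -0.98 ± 0.21 (adjusted p 7.2e-05), by DESeq2 in the authors' deposited table. With the spread of all scores as the null, 3 of the 13 calls were lost, Col18a1 (adjusted p 0.068), Col27a1 (adjusted p 0.09) and Col5a2 (adjusted p 0.22). Col8a1 was higher in IFNg, by 2.66 ± 0.44 (adjusted p 4.7e-08, DESeq2) in the authors' deposited table. Col5a3 was not called, with -0.62 ± 0.45 (adjusted p 0.42, DESeq2), nor was Col4a1, with 0.12 ± 0.25 (adjusted p 0.84, DESeq2), in the authors' deposited table. Of the 14 abundant members, 11 had their highest level in aPD-1 and 8 their lowest in IFNg.

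**Figure D4:**
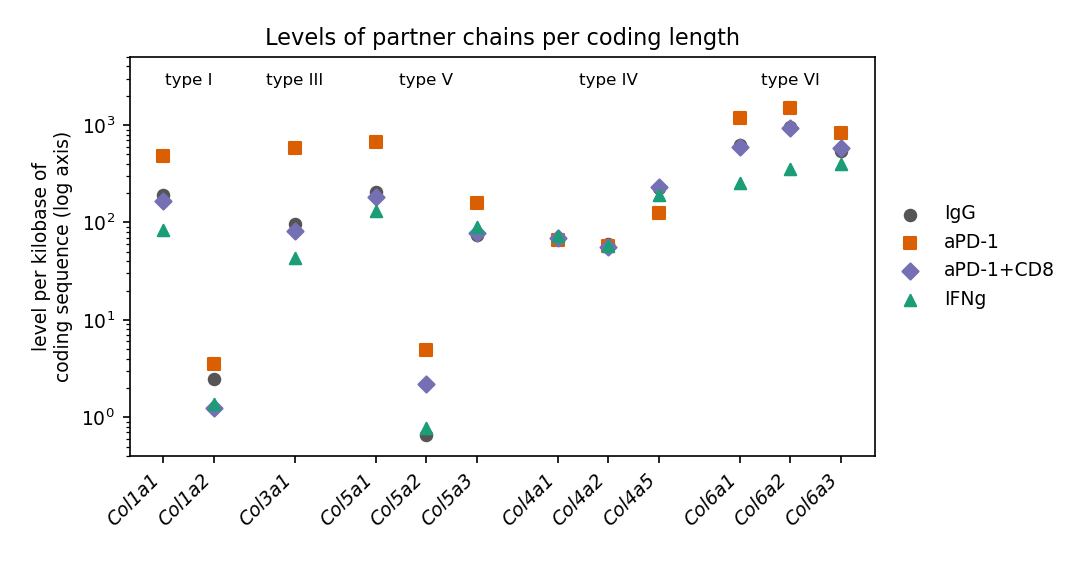
Group level per kilobase of coding sequence (y, log axis) for the chains of types I, III, V, IV and VI in the 4 treatment groups, without error bars because no single-sample values were at hand. Col1a2 and Col5a2 lie far below their partner chains in every group, while the chains of type VI and the pair Col4a1 and Col4a2 lie close together.

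Partner chains were compared per kilobase of coding sequence, which is rough for captured libraries because which probes covered each gene is not known here. Col4a1 stood at 1.11, 1.16, 1.24 and 1.26 times Col4a2 in IgG, aPD-1, aPD-1+CD8 and IFNg. Col6a1 stood at 0.656, 0.802, 0.637 and 0.716 times Col6a2. Col6a3 stood at 0.877, 0.702, 0.979 and 1.58 times Col6a1, lowest in aPD-1 and highest in IFNg. Col1a1, by contrast, stood at 77.3, 138, 133 and 61 times Col1a2, whose product it joins in the usual form of type I collagen. Col5a1 stood at 311, 137, 82 and 169 times Col5a2. The ratio of Col3a1 to Col1a1 was 0.507 in IgG, 1.21 in aPD-1, 0.487 in aPD-1+CD8 and 0.514 in IFNg, so it was highest in aPD-1 and similar in the other 3 groups.

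Genes that fold, modify, trim and cross-link collagen were followed as a list of 37 entries, of which 33 matched a gene in the tables. In the authors' deposited table for aPD-1 v IgG, 16 of 30 tested rose and 3 fell, with a median log2 fold change of 0.52, beside 18.5% of all genes called, and 6 of the 19 calls were left with the spread of all scores as the null. Bmp1, the protease that removes the tail of fibrillar procollagens, stood at 309 in IgG, 1621 in aPD-1, 294 in aPD-1+CD8 and 381 in IFNg, and rose by 2.26 ± 0.17 (adjusted p 3.7e-36, DESeq2) in the authors' deposited table. Pcolce, which speeds up that cut, rose by 0.89 ± 0.15 (adjusted p 1.1e-07, DESeq2) in the authors' deposited table, whereas its relative Pcolce2 fell, with -1.55 ± 0.28 (adjusted p 1.3e-06, DESeq2).

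Enzymes that hydroxylate the chains rose as well in the authors' deposited table for aPD-1 v IgG: Plod2 by 1.59 ± 0.17 (adjusted p 1.4e-19), P4hb by 0.75 ± 0.13 (adjusted p 2.4e-07) and Lepre1 by 0.93 ± 0.18 (adjusted p 8.3e-06), all DESeq2 values. Loxl2, a cross-linking oxidase, stood at 0.201 in IgG, 20.6 in aPD-1, 0.024 in aPD-1+CD8 and 0.393 in IFNg, and rose by 2.45 ± 0.41 (adjusted p 9.7e-08, DESeq2) in the authors' deposited table. It passed the filter on low counts through aPD-1 alone, and in IFNg v IgG, with a mean count of 0.308, it had no adjusted p. Its call therefore adds little to the count for the list. Against the majority, Adamts14, a protease that trims the front of procollagens, gave -0.8 ± 0.22 (adjusted p 0.0024), and Leprel1, a prolyl 3-hydroxylase, gave -1.07 ± 0.4 (adjusted p 0.039), by DESeq2 in the authors' deposited table. Serpinh1, the chaperone specific to collagen, was not called, at levels of 8122, 10299, 8328 and 6744 and with 0.33 ± 0.15 (adjusted p 0.11, DESeq2) in the authors' deposited table.

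In the other comparisons of the same list, 11 of 30 were lower and 1 higher in aPD-1+CD8 v aPD-1, where 14.8% of all genes were called, and 12 of 30 were lower and 2 higher in IFNg v aPD-1, where 15.5% were called, in the authors' deposited tables. Loxl2, tested there through aPD-1 alone, is among the lower genes in both comparisons. For IFNg v IgG 2 of 29 rose and none fell in the authors' deposited table, a share of 6.9% that is near the 4.1% called over all genes, namely Leprel1 with 1.13 ± 0.28 (adjusted p 0.0025, DESeq2) and Pcolce with 0.68 ± 0.17 (adjusted p 0.0035, DESeq2).

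**Figure D5:**
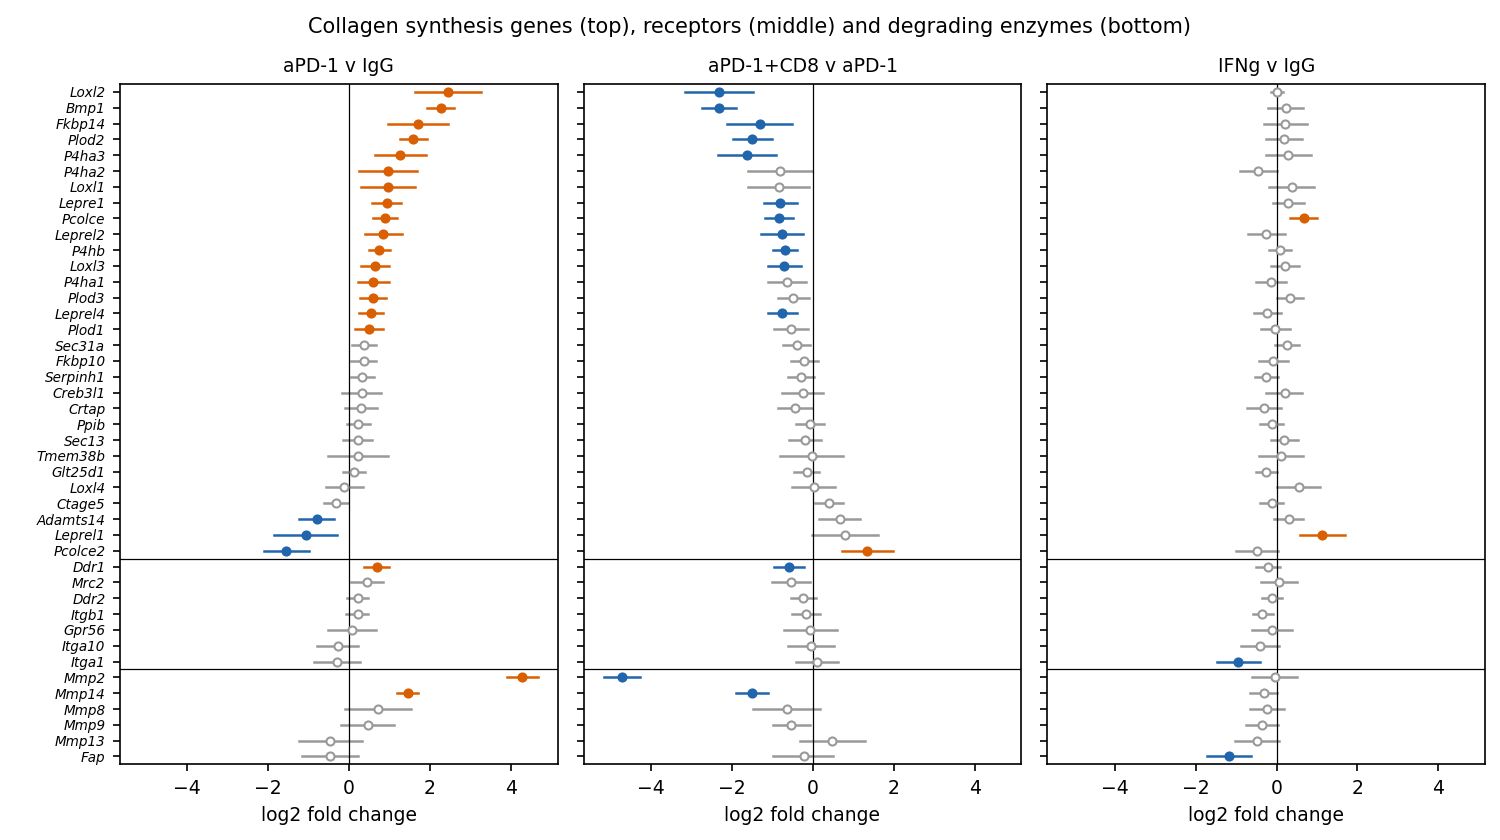
Log2 fold change (x, same axis in each panel) of collagen synthesis genes (top block), receptors (middle) and degrading enzymes (bottom) in 3 of the authors' deposited tables, with 95% intervals. Orange filled points were called higher and blue filled points lower. Open grey points were not called or, as Loxl2 in IFNg v IgG, had no adjusted p. Mmp2 lies farthest from 0 in the first 2 panels and near 0 in IFNg v IgG.

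Of 11 collagen receptors listed, 9 matched and 7 were tested in aPD-1 v IgG, where 1 rose, a share of 14.3% that is near the 18.5% called over all genes. It was Ddr1, a receptor tyrosine kinase, which rose by 0.69 ± 0.15 (adjusted p 0.00014, DESeq2) in the authors' deposited table, a call that was lost with the spread of all scores as the null. The next 5 were not called: Mrc2, which takes collagen up, gave 0.44 ± 0.2 (adjusted p 0.13), Ddr2 0.21 ± 0.13 (adjusted p 0.29), the integrin chains Itgb1 0.21 ± 0.14 (adjusted p 0.35), Itga10 -0.28 ± 0.26 (adjusted p 0.54) and Itga1 -0.3 ± 0.29 (adjusted p 0.55), by DESeq2 in the authors' deposited table. Ddr1 was lower by -0.59 ± 0.18 (adjusted p 0.013, DESeq2) in the authors' deposited table for aPD-1+CD8 v aPD-1. Itga1, a collagen-binding integrin chain, was the receptor that changed with IFNg against IgG, with -0.95 ± 0.27 (adjusted p 0.013, DESeq2) in the authors' deposited table. In IFNg v aPD-1, 3 of 7 were lower, beside 7.13% of all genes, namely Ddr1 with -0.92 ± 0.19 (adjusted p 1.9e-05), Itga1 with -1.01 ± 0.31 (adjusted p 0.01) and Itgb1 with -0.57 ± 0.17 (adjusted p 0.0063), by DESeq2 in the authors' deposited table.

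Of 8 collagen-degrading enzymes, 7 matched and 6 were tested in aPD-1 v IgG, of which 2 rose (33.3%, beside 18.5% of all genes called). Mmp2, a gelatinase, stood at 468 in IgG, 11227 in aPD-1, 332 in aPD-1+CD8 and 466 in IFNg, and rose by 4.28 ± 0.19 (adjusted p 5.1e-106, DESeq2) in the authors' deposited table. Mmp14, the membrane protease that activates it, stood at 1284, 3638, 1213 and 1008 and rose by 1.45 ± 0.13 (adjusted p 1.3e-25, DESeq2) in the authors' deposited table. The other 4 were not called, with Mmp8 at 0.72 ± 0.42 (adjusted p 0.25), Mmp9 at 0.46 ± 0.34 (adjusted p 0.41), Fap at -0.48 ± 0.35 (adjusted p 0.4) and Mmp13 at -0.46 ± 0.39 (adjusted p 0.5), by DESeq2 in the authors' deposited table. Mmp2 and Mmp14 were lower in aPD-1+CD8 v aPD-1, with -4.72 ± 0.23 for Mmp2 (adjusted p 9.5e-89, DESeq2) and -1.5 ± 0.2 for Mmp14 (adjusted p 8.1e-12, DESeq2) in the authors' deposited table. With IFNg against IgG neither was called, and Fap, a fibroblast surface protease, fell, with -1.17 ± 0.28 (adjusted p 0.0013, DESeq2) in the authors' deposited table. In IFNg v aPD-1, 4 of 7 were lower, beside 7.13% of all genes: Mmp2 with -3.48 ± 0.43 (adjusted p 7.5e-14), Mmp14 with -1.79 ± 0.19 (adjusted p 3.8e-19), Fap with -1.64 ± 0.46 (adjusted p 0.0038) and Mmp9 with -0.95 ± 0.24 (adjusted p 0.00082), by DESeq2 in the authors' deposited table. Of these 4 calls 2 were left with the spread of all scores as the null.

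Markers of cell types that could carry these transcripts were followed as lists. The 9 of 10 fibroblast markers in all tables summed to 1769 in IgG, 4373 in aPD-1, 1662 in aPD-1+CD8 and 2304 in IFNg. Most of the higher aPD-1 sum came from Dcn, at 580 in IgG and 2665 in aPD-1, and Pdgfra, at 403 and 1030. Pdgfrb (585 and 480), Fap (37.1 and 24.9) and Fbln1 (90.6 and 67.5) were lower in aPD-1. In the authors' deposited table for aPD-1 v IgG, 2 of 8 tested rose and none fell, beside 18.5% of all genes called. These were Dcn with 2.09 ± 0.17 (adjusted p 1.1e-33, DESeq2) and Pdgfra with 1.25 ± 0.2 (adjusted p 3e-08, DESeq2). Pdgfrb gave -0.28 ± 0.21 (adjusted p 0.43, DESeq2) in the same deposited table. Lum and Acta2 stood under 1 in IgG. With IFNg against IgG the list went both ways, beside 4.1% of all genes called. Of 8 tested, Dcn rose by 0.66 ± 0.15 (adjusted p 0.0012) and Acta2 by 1.19 ± 0.27 (adjusted p 0.00043), Fap fell, with -1.17 ± 0.28 (adjusted p 0.0013), and 5 were not called, by DESeq2 in the authors' deposited table. Acta2, at 0.467 in IgG and 18.1 in IFNg, passed the filter on low counts through IFNg alone. Its call therefore adds little to the count for the list.

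Pericyte and smooth muscle markers summed to 433, 298, 352 and 145 in IgG, aPD-1, aPD-1+CD8 and IFNg. In the authors' deposited table for aPD-1 v IgG, 1 of 5 tested was higher and 2 were lower, beside 18.5% of all genes called. These were Notch3 with 1.45 ± 0.38 (adjusted p 0.0012), Cspg4 with -0.88 ± 0.22 (adjusted p 0.00079) and Myh11 with -2.28 ± 0.41 (adjusted p 9.1e-07), by DESeq2. In IFNg v IgG, 3 of 5 tested were lower and none higher, beside 4.1% of all genes called. They were Cspg4 with -1.68 ± 0.23 (adjusted p 2.4e-11), Myh11 with -1.3 ± 0.27 (adjusted p 0.0001) and Des with -0.93 ± 0.21 (adjusted p 0.00034), by DESeq2 in the authors' deposited table. Myh11, at 21.7 in IgG, 0.631 in aPD-1 and 0.508 in IFNg, passed the filter on low counts through IgG alone in both comparisons. Its calls therefore add little to these counts. Endothelial markers summed to 101, 171, 96.4 and 178, with Kdr, Tek and Tie1 under 1 in every group. Of 2 tested in aPD-1 v IgG 1 was higher, beside 18.5% of all genes called. Macrophage markers summed to 191, 151, 170 and 443. In aPD-1 v IgG 0 of 7 were called, beside 18.5% of all genes, and 0 were at an unadjusted p under 0.05 (DESeq2). The IFNg sum holds 336 from Csf1r, whose p-value the authors' deposited table leaves empty. Of 5 T cell markers 4 matched, and the 1 in all tables, Cd3d, stood under 1 in every group. The part of any cell type in the collagen values was not tested.

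Epithelial markers, which a colon carcinoma could be assumed to carry, were near 0. Of 8, 6 matched and 2 were in all tables, Krt8 at 3.61 and Cdh1 at 2.3 in IgG, and Epcam had a mean count of 0.152 in the authors' deposited table for aPD-1 v IgG. The 2 markers in all tables summed to 5.91 in IgG, 2.04 in aPD-1, 1.24 in aPD-1+CD8 and 2.03 in IFNg. Of 2 tested in aPD-1 v IgG 1 fell, beside 18.5% of all genes called, namely Krt19 with -1.07 ± 0.38 (adjusted p 0.028, DESeq2) in the authors' deposited table. Krt19 had a mean count of 3.68 there and 0.18 in IFNg v aPD-1. It thus passed the filter on low counts through IgG alone, and its call adds little. Which of these genes the capture probes cover is not known here.

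The distance of the 4 group levels from those of Col3a1 was taken for 5705 genes, 13 other collagens among them, between centred log2 levels. Outside the family Ncam1, a cell adhesion molecule, was the nearest at a distance of 0.45, with levels of 382, 3338, 384 and 166. Bhlhe40, a transcription factor, followed at 0.62, Fbln2, an extracellular matrix protein, at 0.65, Tmtc2 at 0.69 and Igfbp4, which binds insulin-like growth factors, at 0.75. Within the family Col7a1 was nearest at 0.83, then Col5a1 at 1.03 and Col1a1 at 1.1, and Col4a5 was the farthest of the 13 compared at 3.42. The distance rests on 4 group means and carries no test.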

How the data were processed

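RNA from 12 samples in 4 groups of 3 was compared by the submitters, and groups were taken from the treatment in each sample's labels. Per the submitters' processing notes the authors used DESeq2 and the mm9 build; no version, aligner, counter or strand setting is stated in what was read here. Each of the 5 deposited tables gives, per the file headers, a mean normalized count (a signal that the authors scaled for library size), a log2 fold change with its SE, a Wald score and a p-value, raw and adjusted. The tables hold 0 columns of single samples. Library depth is therefore unknown, and the mean counts summed to 10292941 to 11590748 a table.

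The tests are the authors' own, and none was refitted. The deposited p-values were recomputed from the scores and differed by at most 2.9e-15. Group levels were solved by least squares from the mean counts of the 5 pairs of groups, after 3 relative group depths were set on 5706 genes whose mean count reached 100 in all 5 tables, centred on those with a deposited log2 change under 0.1 in size. The median misfit was 0.058% of the mean count (0.16% without that scale). The solution was also run on simulated data without genes of low count, built on the same model of group depths. That run does not bear on low levels or on whether the model holds here. A 95% interval is the log2 fold change plus or minus 1.96 SE.

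The collagens, their classes and the lists of related genes and markers were chosen with earlier results of these data known. Named were all called collagens, uncalled ones with a mean count of at least 10, and, of the lists of synthesis genes, receptors and degrading enzymes, up to 6 with the smallest p in aPD-1 v IgG and those that moved against the majority. Up to 5 genes nearest Col3a1 were named by the distance between centred log2(level + 1) values. Coding lengths are the longest coding sequence of the GENCODE annotation for GRCm38, and promoters are from RefSeq on GRCm38.p6; neither was used with the authors' coordinates. Alternatives were a stricter adjusted p of 0.01, a minimum log2 change of 1, a mean count of at least 10, no filter on low counts, the robust spread of all scores as the null, levels from the deposited fold changes, type IV chains alone and, chosen after seeing the data, no scaling of the tables. Python 3.11.15, numpy 2.4.6, pandas 2.3.3, scipy 1.17.1 and matplotlib 3.10.9 were used.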

Additional observations from a re-analysis of the deposited data

How the results depend on the processing

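No called collagen or median over the abundant collagens changed direction under the alternatives run, but uncalled ratios of group levels did, as given below. With the robust spread of all scores as the null, which also contains changed genes and is therefore wide, 20 of 43 collagen calls were lost. The collagens called fell from 14 to 4 in aPD-1 v IgG and from 11 to 5 in aPD-1+CD8 v aPD-1. Synthesis genes called went from 19 to 6, from 12 to 3 and, in IFNg v aPD-1, from 14 to 6; receptors from 1 to 0, from 1 to 0 and from 3 to 1; and degrading enzymes in IFNg v aPD-1 from 4 to 2. With a log2 change of at least 1 in size, collagens called were 7 in aPD-1+CD8 v aPD-1 and 3 of 5 in IFNg v IgG. Synthesis genes were 7 in aPD-1 v IgG, 6 in aPD-1+CD8 v aPD-1, 1 in IFNg v IgG and 8 in IFNg v aPD-1, and receptors 0, 0, 0 and 1. With an adjusted p under 0.01 (DESeq2), 0 receptors were called in aPD-1+CD8 v aPD-1 and in IFNg v IgG. No filter on low mean counts left all 43 collagen calls in place.

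Without scaling the tables, a setting chosen after seeing the data, the median log2 ratio of the 14 abundant collagens was -1.46 for aPD-1+CD8 v aPD-1 (-1.01 with scaling), -0.6 for aPD-1+CD8 v IgG (-0.08) and -0.66 for IFNg v IgG (-0.27). Of 70 log2 ratios of group levels 46 moved and 9 turned sign, none above 0.11 in size with scaling. In aPD-1+CD8 v IgG 5 turned, Col18a1 for example from 0.11 to -0.4, so that 5 higher and 9 lower became 0 and 14; in aPD-1+CD8 v aPD-1 Col4a1 turned from 0.07 to -0.27. No paired analysis was possible because the files hold no columns of single samples, and leaving out each replicate was not possible for the same reason. Levels under about 10 mean counts rest on few reads, and the shrunken fold changes understate them.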
